A study of Homo sapiens with 12 samples.

Results

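The 10 genes CAVIN2, ALDH8A1, FEZ2, BEGAIN, ADTRP, KANK4, WDR25, METTL4, PDGFC and FBXO17 were described by their H3K27ac peaks in 12 libraries of 2 human pancreatic ductal adenocarcinoma lines. They are 10 of 19974 protein-coding genes on chromosomes 1 to 22 and X, and they were picked from these same peak lists for broad acetylation in MiaPaCa2 beside little or none in CFPAC1. The contrast between the lines is therefore given as a description, without a test. For each gene the window was the gene body with 20 kb on either side, and covered length is the number of bases in that window that lie under a peak.

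The libraries form 6 groups of 2. Unmodified CFPAC1 cells were profiled untreated and after 2 h with 1000 U/ml of interferon beta (IFN-b), and unmodified MiaPaCa2 cells were profiled in the same 2 states. The remaining groups are CFPAC1 clones, WT clones that carry the empty lentiCRISPRv2 vector and IRF1 knockout clones made with Cas9 and a guide to IRF1, both untreated. Each clone library comes from 1 clone, and the labels do not say whether the bulk libraries come from separate cultures, so p-values measure the spread between these libraries, which may be technical. CFPAC1 was grown in IMDM and MiaPaCa2 in DMEM, so line and medium cannot be told apart.

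The peak lists held 59896 to 109834 peaks (59896 to 85442 in MiaPaCa2, 80584 to 109834 in CFPAC1) and covered 63.6 to 94.8 Mb. Their read depth is unknown. The longest list was that of IRF1 knockout clone 2. Marker genes were read within 5 kb of the gene end with more coverage, and a bare gene had no peak there. Of 9 epithelial marker genes, 9 had peaks there in all 8 CFPAC1 libraries. In all 4 MiaPaCa2 libraries 4 did, while EPCAM, CDH1, KLF5 and GRHL2 were bare. Summed over the 9 genes that was 30339 to 36241 bp in MiaPaCa2 and 48189 to 68677 bp in CFPAC1. Of 6 mesenchymal markers 3 had peaks in all MiaPaCa2 libraries and 4 in all CFPAC1 libraries, with ZEB2, CDH2 and FN1 bare in MiaPaCa2. Of 5 leukocyte markers 2 had peaks in all MiaPaCa2 and 3 in all CFPAC1 libraries (5312 to 6984 and 7146 to 9800 bp in sum), with CD68 covered and PTPRC bare in both lines. Of 4 endothelial markers 1 and 2 did (3711 to 6073 and 3647 to 8414 bp), with CDH5 covered and VWF bare in both lines. Of 5 fibroblast markers 1 and 2 did (5808 to 6703 and 2082 to 6294 bp), with COL1A2 covered in all MiaPaCa2 libraries and DCN bare in both lines. Bare genes could have peaks elsewhere in the gene body and its flanks of 20 kb. In that window PTPRC had 4.41 to 8.78 kb and VWF 3.02 to 5.53 kb in CFPAC1. EPCAM had 2.34 to 2.62 kb in MiaPaCa2. The part of other cell types in the results was not tested. The IRF1 gene itself had 5485 and 5611 bp in the WT clones and 7533 and 8924 bp in the knockout clones, which says nothing about whether its protein was lost.

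H3K27ac is acetylation of a lysine in the tail of histone H3, and it marks active promoters and enhancers. Most promoters carry a short acetylated stretch, whereas long acetylated stretches are found at clustered enhancers. A peak inside a gene body can belong to that gene, to a neighbour or to a distant promoter. The genes described here have unrelated roles: membrane and adhesion proteins (CAVIN2, KANK4), a growth factor (PDGFC), enzymes (ALDH8A1, ADTRP, METTL4), a subunit of a ubiquitin ligase (FBXO17), and adaptor or scaffold proteins (FEZ2, BEGAIN), and a WD-repeat protein (WDR25).

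Sequences before the start were found in RefSeq (GRCh38.p14) for 9 of the 10 genes. Those of 6 starts are shown, because these starts differed between the lines or were bare under a broad domain, and because they span the range from few to many CpG dinucleotides. Each is 250 bases long, ends at the base before the start, and reads 5′ to 3′ on the gene's strand, which is the minus strand for all 6. Capitals mark CpG. The stretches are chr2:191847089-191847338 (CAVIN2), chr6:134950102-134950351 (ALDH8A1), chr6:11778804-11779053 (ADTRP), chr1:62319435-62319684 (KANK4), chr14:100568978-100569227 (an inner start of BEGAIN) and chr19:38975743-38975992 (FBXO17, outermost start).
CAVIN2: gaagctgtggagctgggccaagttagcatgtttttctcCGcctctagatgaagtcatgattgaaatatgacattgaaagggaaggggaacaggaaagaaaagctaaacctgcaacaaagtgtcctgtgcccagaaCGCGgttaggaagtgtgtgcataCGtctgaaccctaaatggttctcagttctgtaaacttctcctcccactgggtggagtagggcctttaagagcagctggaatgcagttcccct
ALDH8A1: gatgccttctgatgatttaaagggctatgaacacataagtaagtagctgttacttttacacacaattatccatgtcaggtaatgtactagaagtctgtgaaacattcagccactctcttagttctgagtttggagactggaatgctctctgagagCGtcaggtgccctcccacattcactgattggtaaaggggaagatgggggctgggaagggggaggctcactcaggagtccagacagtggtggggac
ADTRP: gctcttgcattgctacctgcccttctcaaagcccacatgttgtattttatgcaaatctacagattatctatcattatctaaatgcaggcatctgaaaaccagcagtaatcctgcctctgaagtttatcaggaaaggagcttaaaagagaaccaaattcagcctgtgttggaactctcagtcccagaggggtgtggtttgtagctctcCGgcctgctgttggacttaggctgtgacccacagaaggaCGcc
KANK4: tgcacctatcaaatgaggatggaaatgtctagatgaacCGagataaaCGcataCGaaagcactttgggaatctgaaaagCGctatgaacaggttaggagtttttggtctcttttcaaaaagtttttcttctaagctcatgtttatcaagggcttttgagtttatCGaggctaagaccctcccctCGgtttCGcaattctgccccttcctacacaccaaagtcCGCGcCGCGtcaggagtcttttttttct
BEGAIN: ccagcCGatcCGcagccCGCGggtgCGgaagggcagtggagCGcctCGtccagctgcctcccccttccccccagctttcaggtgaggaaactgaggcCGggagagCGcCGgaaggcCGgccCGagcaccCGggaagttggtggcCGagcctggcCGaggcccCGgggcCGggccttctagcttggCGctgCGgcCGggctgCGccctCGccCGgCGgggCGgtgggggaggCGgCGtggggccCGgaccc
FBXO17: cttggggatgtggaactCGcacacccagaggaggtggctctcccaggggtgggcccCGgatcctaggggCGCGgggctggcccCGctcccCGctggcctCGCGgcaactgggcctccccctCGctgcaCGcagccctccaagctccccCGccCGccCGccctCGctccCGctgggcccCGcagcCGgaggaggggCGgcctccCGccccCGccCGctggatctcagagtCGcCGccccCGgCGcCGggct

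These stretches held 4 CpG at CAVIN2, 1 at ALDH8A1, 2 at ADTRP and 11 at KANK4, all below the median of 17 over 13794 promoters of the same length. The BEGAIN and FBXO17 stretches held 28 and 26, and the upper quartile of all promoters was 26. Broad windows in MiaPaCa2 had outermost starts with few CpG (CAVIN2, ALDH8A1, ADTRP and KANK4) and with many (WDR25 and BEGAIN, 32 each). The 5 starts listed for BEGAIN held 4 to 32. The window of FBXO17 was not broad, as given below. Over the 9 outermost starts, the letters TGANTCA (bound by AP-1) were found on either strand at 1, FEZ2, against 5.04% of all promoters. GGAATG (bound by TEAD factors) was found at 3, CAVIN2, ALDH8A1 and BEGAIN, against 10.0% of all promoters, and GAAA, any 2 bases and GAAA again (bound by IRF factors) at 0, against 2.68%. The 3 patterns were searched separately, and a match describes the letters in this window and nothing else.

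All 10 genes had more covered length in each of the 4 MiaPaCa2 libraries than in any of the 8 CFPAC1 libraries, which is what they were chosen for. That separation was found at 13.9% of all 19974 genes, so it is common between these lines. The breadth was less common: the mean share of the window under peaks in MiaPaCa2 was 67.5% at PDGFC, the 47th highest of all genes, and 64.0% at FEZ2, the 66th. It was 60.5% at CAVIN2, 54.6% at BEGAIN, 54.5% at ALDH8A1, 53.9% at WDR25, 46.7% at KANK4, 41.6% at METTL4 and 35.4% at ADTRP. FBXO17 stood apart with 8.98%, the 4915th highest, so "broad" does not describe its window. The median of all genes was 3.13% in MiaPaCa2 and 4.10% in CFPAC1. BEGAIN, ALDH8A1 and WDR25 lie within 1 percentage point of each other in this order, less than the differences between libraries at each of them.

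**Figure D1:**
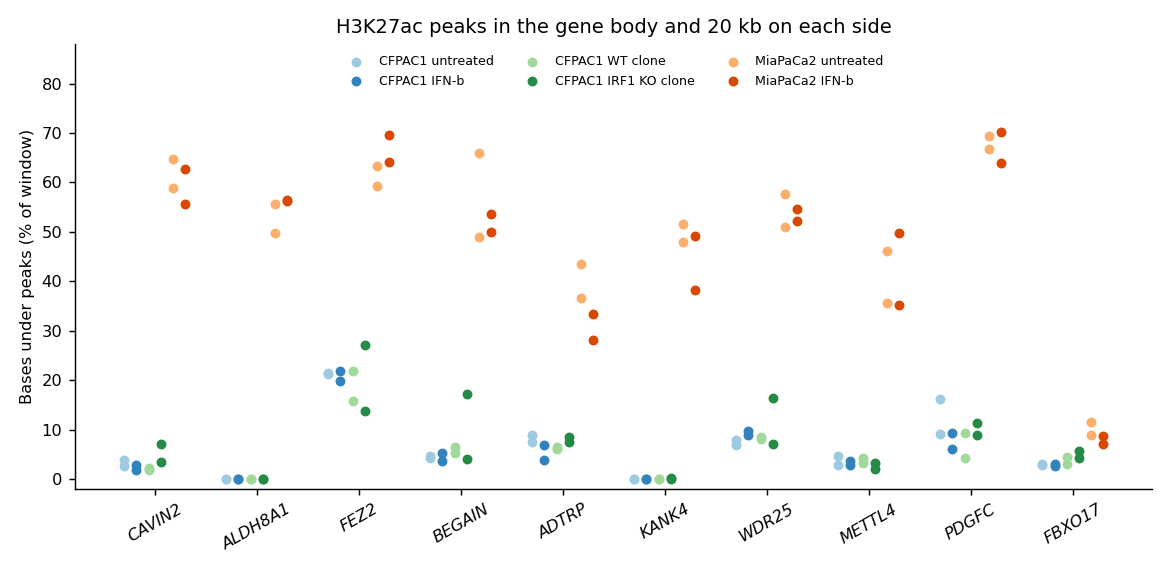
Share of each gene's window (gene body with 20 kb on each side) under H3K27ac peaks, in percent, with 1 point per library and colours for the 6 groups. The MiaPaCa2 points lie between 7.0% and 11.5% at FBXO17 and between 28.0% and 70.2% at the other 9 genes, above every CFPAC1 point of the same gene.

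"Without CFPAC1 peaks" held for 1 gene in the full window. ALDH8A1 had no peak in any of the 8 CFPAC1 libraries, a pattern (all 4 MiaPaCa2 libraries covered, no CFPAC1 library) shared with 73 genes in all, 0.365% of 19974. KANK4 was without a peak in 7 of 8 and had a single peak of 0.288 kb in IRF1 knockout clone 2. The other 8 genes had CFPAC1 peaks in all 8 libraries. A narrower window, 5 kb on either side of the gene end with more coverage, came closer to it. There 3 of the 10, ALDH8A1, ADTRP and KANK4, were covered in all 4 MiaPaCa2 libraries and in no CFPAC1 library, against 1.08% of all genes. Among 5661 genes with none in untreated CFPAC1 in that narrower window, CAVIN2, ALDH8A1, FEZ2, BEGAIN, ADTRP and KANK4 were the first 6 by mean length in untreated MiaPaCa2. KANK4 had 8638 bp there, and the next gene, WT1, 8031 bp. The genes were picked from these same lists for such a pattern. The counts and the ranking in this paragraph therefore follow from the choice and are a description.

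**Figure D2:**
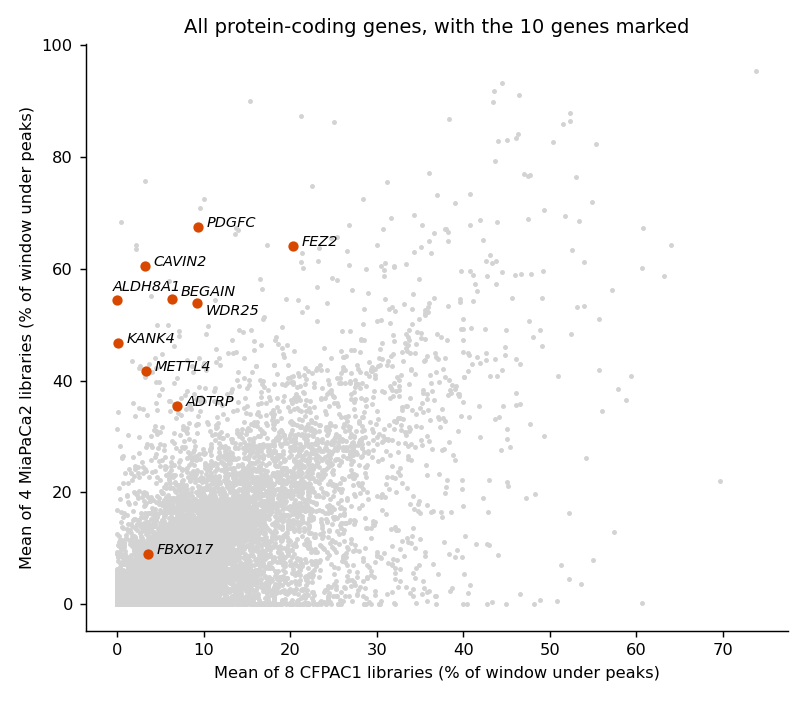
Mean share of the window under peaks in the 8 CFPAC1 libraries (x axis, percent) and the 4 MiaPaCa2 libraries (y axis, percent) for all 19974 protein-coding genes in grey, with the 10 genes in orange. ALDH8A1 and KANK4 lie at the left edge, FEZ2 reaches 20.3% in CFPAC1, and FBXO17 lies within the bulk of genes.

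CAVIN2 encodes a coat protein of caveolae, the flask-shaped pits of the plasma membrane. Its window held 31.1 and 34.1 kb under peaks in the untreated and 29.3 and 33.1 kb in the treated MiaPaCa2 libraries. In CFPAC1 it held 0.928 kb at the lowest, 1.45 kb at the median and 3.70 kb at the highest, the last in IRF1 knockout clone 2. The bases covered in all 8 CFPAC1 libraries lay at the upstream edge of the window. In MiaPaCa2 a stretch of 15.8 kb shared by all 4 libraries ran from upstream of the gene to 3.94 kb inside it (chr2:191843150-191858991), over the start shown above. Within 1 kb of that start all 4 MiaPaCa2 libraries were covered over 2000 of 2000 bp. The peaks over it were 15.8 to 34.2 kb wide, with a deposited fold enrichment of 27.6 to 35.7. Their summit lay 0.225 kb inside the gene in the first untreated library. In the second untreated library it lay at -18.7 kb, and in the treated ones at -20.4 and -19.5 kb, upstream of the start. Those folds therefore belong to the upstream edge. Within 1 kb of the start 1 of 8 CFPAC1 libraries, IRF1 knockout clone 2, had a peak, of 514 bp and a fold of 6.99.

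KANK4 encodes an adaptor of the KANK family, whose members bind talin at the rim of focal adhesions. Covered length was 63.5 and 59.0 kb in untreated and 47.1 and 60.6 kb in treated MiaPaCa2. The first treated library was the lowest, and the groups overlapped. The highest peak lay 0.544 to 0.609 kb inside the start in 3 of the 4 libraries and beyond the far end of the gene in the first treated one. Peaks continued through the body and past the far end, with a shared stretch of 7.08 kb downstream of the gene (chr1:62227557-62234632). Outside the window, the nearest CFPAC1 peaks were 113 to 114 kb and 116 kb away from the gene's ends.

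PDGFC encodes a ligand of the platelet-derived growth factor receptors that is secreted in a latent form. It had the most covered length of the 10 genes, 174 and 168 kb in untreated and 161 and 177 kb in treated MiaPaCa2, in a window of 251 kb. A single peak of 52.4 kb in the first and 54.9 kb in the second treated library was the widest of its whole list. In the untreated libraries the widest peaks at PDGFC were 34.1 and 32.5 kb, the 14th widest of their lists. CFPAC1 had 10.6 kb at the lowest, 23.1 kb at the median and 40.6 kb at the highest. The ends of the gene differed. Within 5 kb of its low-coordinate end MiaPaCa2 had 9.04 to 9.24 kb, while 7 CFPAC1 libraries had none and IRF1 knockout clone 2 had 0.282 kb. Within 5 kb of the high-coordinate end MiaPaCa2 had 5.62 to 6.16 kb and CFPAC1 3.50 to 8.51 kb, so the lines overlapped there.

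ALDH8A1 encodes an aldehyde dehydrogenase of the kynurenine route of tryptophan breakdown. Its window held 40.5 and 36.1 kb in untreated and 40.9 and 41.0 kb in treated MiaPaCa2, and nothing in CFPAC1. The acetylation began inside the gene and ran past its far end, and the start shown above was nearly bare. Within 1 kb of the start, 2 MiaPaCa2 libraries had no peak and the others had 539 and 294 bp, with folds of 3.45 and 4.05. Within 5 kb of the far end all 4 had 9.87 to 10.0 kb, with 2 shared stretches of 5.59 and 5.17 kb (chr6:134908164-134913752 and chr6:134913933-134919097). HBS1L, a gene of ribosome rescue, lies 10.3 kb from ALDH8A1 on the side of its start. The nearest CFPAC1 peaks were at least 62.7 kb from the gene on one side and 104 kb on the other.

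ADTRP encodes a membrane hydrolase of fatty acid esters that is also known as a regulator of tissue factor pathway inhibitor. It had 45.8 and 38.5 kb in untreated and 29.5 and 35.2 kb in treated MiaPaCa2, and 4.12, 7.49 and 9.44 kb (lowest, median, highest) in CFPAC1. Its highest peak in MiaPaCa2 lay 6.6 to 7.49 kb inside the gene, in a shared stretch of 8.56 kb (chr6:11765559-11774121). CFPAC1 had peaks at the same place, and 94.7% of that stretch was under a peak of at least 1 CFPAC1 library. The far end differed, with 8.09 to 10.0 kb in MiaPaCa2 and 0 in all 8 CFPAC1 libraries. Within 1 kb of the start the MiaPaCa2 libraries had 454 to 1583 bp at folds of 4.53 to 6.19, and 2 CFPAC1 libraries had a peak.

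METTL4 encodes a methyltransferase that methylates adenine in RNA. Its start lies 52 bp from that of NDC80, a kinetochore gene on the other strand, and this shared promoter was covered in all 12 libraries, over 1274 to 2000 bp in CFPAC1 and 2000 bp in MiaPaCa2. In CFPAC1 the peaks at the promoter were all there was: the whole window held 1.47 kb at the lowest, 2.44 kb at the median and 3.40 kb at the highest. In MiaPaCa2 it held 26.4 and 34.0 kb untreated and 26.0 and 36.8 kb treated. The added length lay at the far end of the gene, where a stretch of 11.6 kb (chr18:2532774-2544324) was under peaks in all 4 libraries and in no CFPAC1 library. The peak there had the 2nd highest fold of its whole list in the second untreated library, 52.1, and ranked 2264th, 460th and 62nd in the others.

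**Figure D3:**
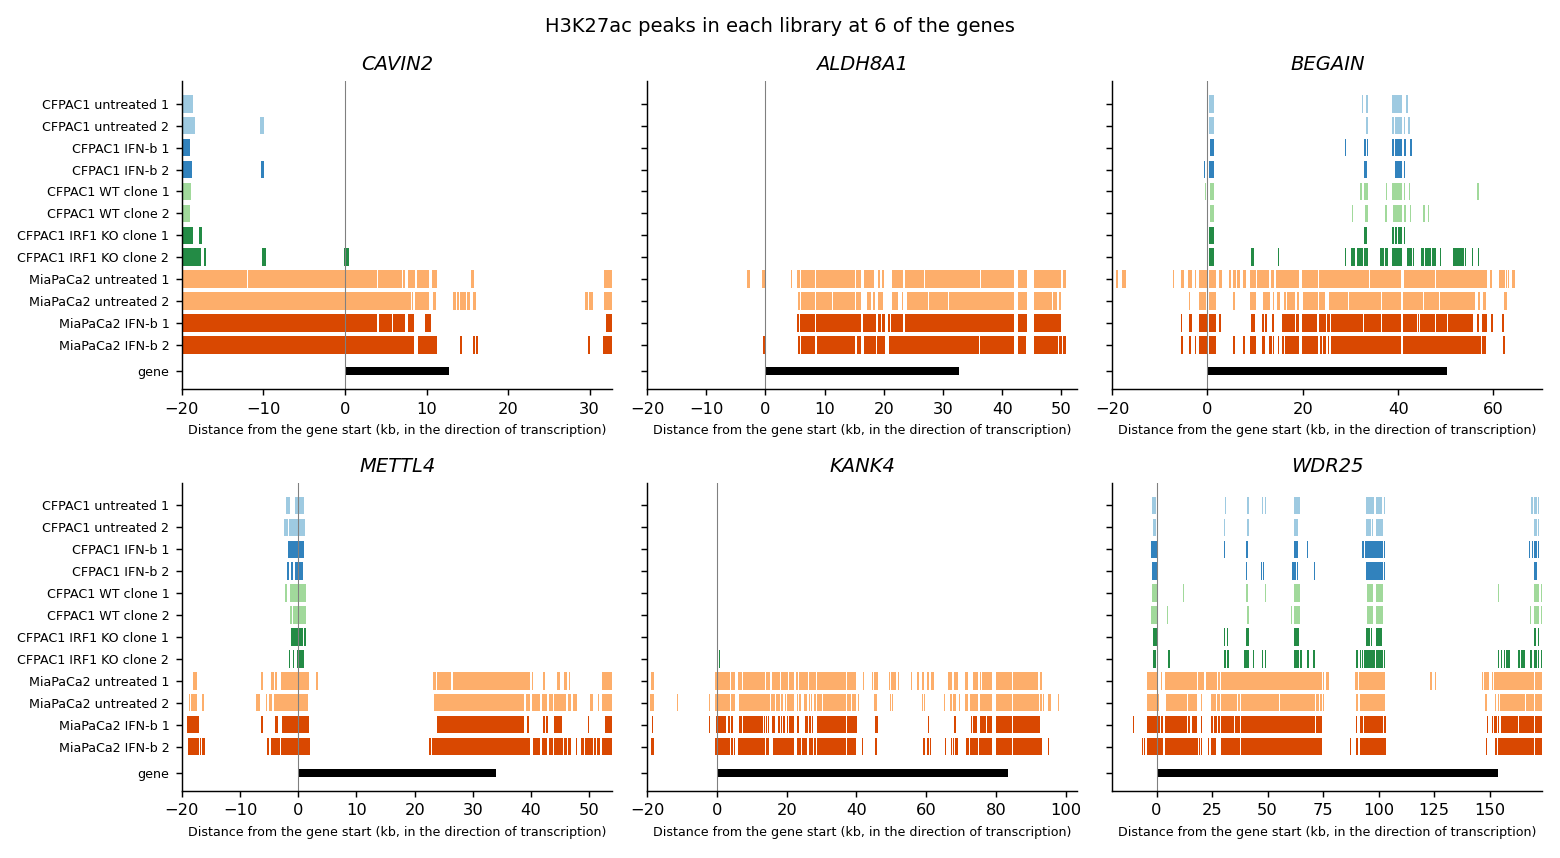
H3K27ac peaks of the 12 libraries (rows, coloured by group) at 6 genes, by distance from the gene start in kb in the direction of transcription, with the gene as a black bar. In MiaPaCa2 the start of CAVIN2 is covered throughout, that of ALDH8A1 is almost bare, and METTL4 has a shared promoter peak in all 12 libraries and a MiaPaCa2 stretch of 11.6 kb at its far end.

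FBXO17 encodes an F-box protein, the part of a ubiquitin ligase that binds the substrate. It had 8.52 and 6.57 kb in untreated and 5.20 and 6.43 kb in treated MiaPaCa2, and 1.89, 2.23 and 4.16 kb (lowest, median, highest) in CFPAC1. A stretch of 2.05 kb of this, where all 8 CFPAC1 libraries also had peaks, lies at the adjoining starts of SARS2 and MRPS12, genes of the mitochondrial translation machinery. Most of the rest lay at FBXO17's outermost start, shown above, with 1847 to 1912 bp within 1 kb in MiaPaCa2 and folds of 27.5 to 39.7. In CFPAC1 4 of 8 libraries had a peak there, of 229 to 1300 bp: the first untreated library, WT clone 1 and both IRF1 knockout clones. A locus of 866 bp in the gene body (chr19:38962343-38963208) had a peak in all 4 MiaPaCa2 libraries and in no CFPAC1 library. The inner start had no peak within 1 kb in any of the 12 libraries.

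FEZ2 encodes a relative of FEZ1, an adaptor for transport along microtubules. It had 50.9 and 54.3 kb in untreated and 55.0 and 59.8 kb in treated MiaPaCa2. It was also the gene of the 10 with the most CFPAC1 coverage per length, 11.8 kb at the lowest, 18.4 kb at the median and 23.2 kb at the highest. A stretch of 20.2 kb shared by the MiaPaCa2 libraries (chr2:36549998-36570195) ran over its far end, 1.12 kb from CRIM1, which encodes a membrane protein that binds bone morphogenetic proteins. Within that stretch CFPAC1 had peaks of its own, and 66.8% of it was under a peak of at least 1 CFPAC1 library. Within 5 kb of the far end, 5 CFPAC1 libraries had none and 3 had up to 1.78 kb.

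BEGAIN, a gene of a scaffold protein known from synapses, and WDR25, a WD-repeat protein of little known function, are neighbours that point towards each other. Their bodies are 6.84 kb apart and their windows share 33.2 kb, so they are not independent. BEGAIN had 59.6 and 44.2 kb in untreated and 45.03 and 48.3 kb in treated MiaPaCa2, and 3.32, 4.42 and 15.6 kb (lowest, median, highest) in CFPAC1. RefSeq lists 5 starts for it. The outermost and the innermost had peaks within 1 kb in all 12 libraries. The 3 starts in between, including the one shown above, had 920 to 1810 bp in MiaPaCa2, with folds of 15.6 to 37.2, and none in any CFPAC1 library. The highest peak of the BEGAIN window in MiaPaCa2 was beside these inner starts in all 4 libraries, at 18.2 to 20.5 kb from the outermost one.

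WDR25 had 112 and 98.6 kb in untreated and 101 and 106 kb in treated MiaPaCa2, and 13.1, 16.2 and 31.7 kb (lowest, median, highest) in CFPAC1. Its start lies 158 bp from that of WARS1, the cytoplasmic tryptophanyl-tRNA synthetase, and was covered in all 12 libraries. In MiaPaCa2 the body carried shared stretches of 17.2 and 16.0 kb (chr14:100414467-100431669 and chr14:100431914-100447931), with CFPAC1 peaks over 22.9% and 36.1% of them. A stretch of 7.51 kb further into the gene was under CFPAC1 peaks over 98.8%.

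In MiaPaCa2 the acetylation was longer at the far end than at the start of most of the genes. In all 4 MiaPaCa2 libraries 6 of the 9 genes with a listed start (ALDH8A1, FEZ2, BEGAIN, ADTRP, KANK4 and METTL4) had more bases under peaks within 5 kb of the far end, against 7.68% of 15813 genes. PDGFC had no entry among the listed starts and was left out. The genes were chosen for breadth in MiaPaCa2 and for little or no coverage in CFPAC1. Such a choice can favour far ends, since FEZ2, BEGAIN and METTL4 had CFPAC1 peaks at their starts in all 8 libraries. The count of 6 may follow from the choice and is a description. CAVIN2 and FBXO17 had more at the start, and at WDR25 the order differed between libraries. Of the 9 outermost starts 8 had a peak within 1 kb in all 4 MiaPaCa2 libraries, against 59.6% of 13794 starts. In all 8 CFPAC1 libraries 4 did (FEZ2, BEGAIN, WDR25 and METTL4), against 59.7%, and the same 4 in all 12 libraries, against 54.7%. At 0 of the 9 was the outermost start covered in all MiaPaCa2 and no CFPAC1 libraries, against 0.928%. The choice of genes bears on these start counts as well, so they are a description.

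**Figure D4:**
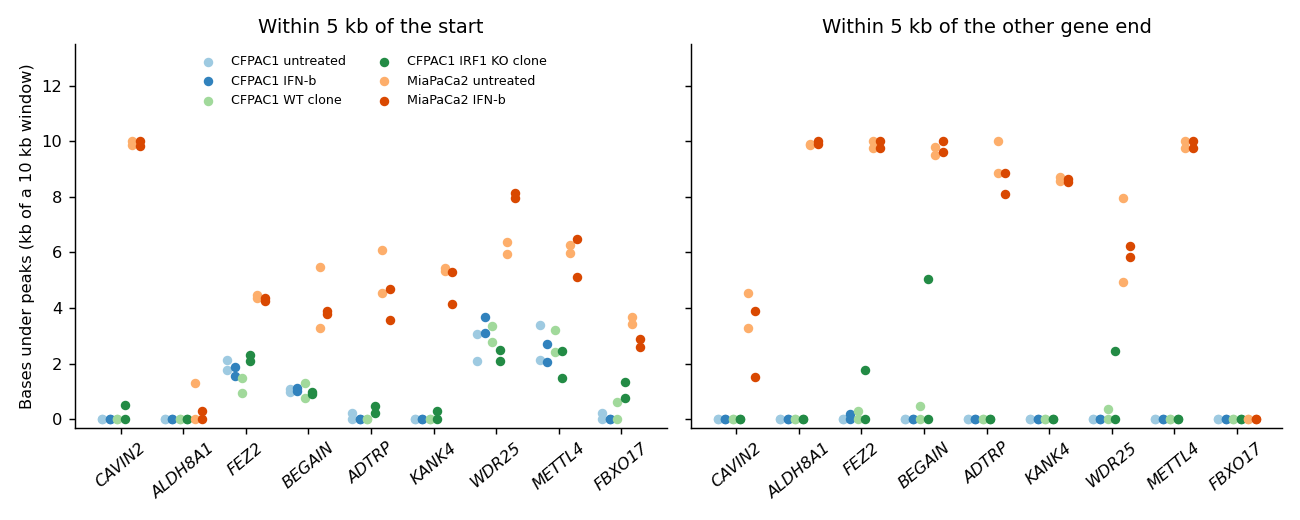
Bases under peaks, in kb, within 5 kb of the start (left) and within 5 kb of the other gene end (right) for the 9 genes with a listed start, with 1 point per library. At the far end the MiaPaCa2 libraries lie between 8.09 and 10.0 kb at ALDH8A1, FEZ2, BEGAIN, ADTRP, KANK4 and METTL4, and 4 of these genes have no CFPAC1 coverage there.

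Where CFPAC1 had peaks at these genes, they mostly lay within the MiaPaCa2 domains. At CAVIN2, METTL4 and KANK4, 100% of the bases covered in at least 1 CFPAC1 library were covered in all 4 MiaPaCa2 libraries. Over the whole genome that share was 23.3%, and the 10 windows were chosen for wide MiaPaCa2 coverage. Among the genes the share was 92.9% at WDR25, 91.3% at BEGAIN, 87.8% at FEZ2, 87.7% at ADTRP, 81.7% at PDGFC and 72.0% at FBXO17. Merged over the 12 libraries, the 10 windows held 297 loci. Each locus in the 33.2 kb shared by the BEGAIN and WDR25 windows was counted for both genes, but once in the genome total. The counts of 85 and 21 given next include such repeats. Of the 297 loci 85 had a peak in all 4 MiaPaCa2 libraries and no CFPAC1 library, against 2.92% of the 188651 loci in the genome. Another 21 had a peak in all 12 libraries, against 8.88%, and 4 had peaks in CFPAC1 alone, against 51.1%. Of the 297 loci 0 had a peak in all 8 CFPAC1 libraries and no MiaPaCa2 library, against 6.14%. The choice of genes bears on each of these counts, so they are a description.

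Treated and untreated MiaPaCa2 were compared for the effect of 2 h of IFN-b, a type I interferon that signals through STAT and IRF transcription factors. None of the 10 genes passed the test. The limma fit over all genes called 124 of 17285 genes at an adjusted p under 0.05, or 0.717% (0.654% higher and 0.0636% lower). For the 10 genes the log2 change in covered length ran from -0.27 ± 0.21 (SE) at ADTRP to 0.23 ± 0.24 at FEZ2, with limma adjusted p from 0.867 to 0.990, and 0 of them had an unadjusted p under 0.05. Their median was 0.06, beside 0.02 over all genes. The 95% intervals together reached from -1.06 to 1.00, both at BEGAIN, and were narrowest at ALDH8A1 (-0.16 to 0.56). The libraries did not overlap at 4 genes, ALDH8A1 and FEZ2 (treated higher) and ADTRP and FBXO17 (treated lower), against 29.8% of all genes tested. Over all genes, the number called was 64 without the first and 380 without the second untreated library, and 22 without the first treated one. The 10 genes were picked from lists that include the untreated libraries compared here, so the choice bears on their changes.

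At the level of loci, both treated MiaPaCa2 libraries and neither untreated one had a peak at 3 of the 297 loci, 1 at FEZ2 and 2 at PDGFC, against 1.05% of 188651 loci in the genome. The reverse was found at 10 loci, against 1.62%. They were 3 at ADTRP, 2 at KANK4, 1 at WDR25, 3 at PDGFC and 1 at FBXO17, and the widest was 1486 bp. Each was short beside the domain of its gene. The genes were picked for breadth in MiaPaCa2 from these same lists. A choice that uses the untreated libraries can favour loci absent after treatment, so both counts are a description.

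The same treatment of CFPAC1 could be tested at 8 genes, since ALDH8A1 and KANK4 had no coverage. None passed, beside 219 of 17285 genes called over the whole table (1.27%; 0.989% higher and 0.278% lower). The log2 change ran from -0.51 ± 0.38 (SE) at PDGFC to 0.51 ± 0.29 at WDR25, with limma adjusted p from 0.473 to 0.994, and 0 had an unadjusted p under 0.05. The median of the 8 was 0.06, beside 0.01 over all genes. ADTRP had 7.83 and 9.44 kb untreated and 4.12 and 7.21 kb treated, and WDR25 had 15.2 and 13.1 kb untreated and 18.9 and 17.0 kb treated. These were the 2 genes whose libraries did not overlap, against 56.3% of all genes tested. The treatment brought no CFPAC1 peak to ALDH8A1 or KANK4, nor to the start of CAVIN2 or the 3 inner starts of BEGAIN named above. Of the 297 loci 0 had a peak in both treated and neither untreated CFPAC1 library, against 1.65% of loci in the genome, and 1, at PDGFC, had the reverse, against 3.17%. Over all genes, the number called fell to 2 and 23 without the first and second treated library and to 4 and 25 without the first and second untreated one.

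The knockout of IRF1, an interferon-induced transcription factor, was set against the WT clones at the same 8 genes. None passed at an adjusted p under 0.05, beside 181 of 17285 genes called (1.05%), 90 higher (0.521%) and 91 lower (0.526%). Without centring of the libraries that split was 88 and 29. CAVIN2 had 1.15 and 1.00 kb in the WT clones and 1.80 and 3.70 kb in the knockout clones, a log2 change of 0.85 ± 0.26 (SE, limma adjusted p = 0.158), the 1 gene of the 8 with an unadjusted p under 0.05. METTL4 had 3.20 and 2.42 kb in the WT and 2.45 and 1.47 kb in the knockout clones (-0.58 ± 0.26, limma adjusted p = 0.324). The other 6 ran from -0.08 at FEZ2 to 0.54 at PDGFC. The median of the 8 was 0.22, beside -0.04 over all genes. The clones did not overlap at CAVIN2 and ADTRP (knockout higher), against 39.9% of all genes tested. Both knockout clones and neither WT clone had a peak at 3 of the 297 loci (FEZ2, WDR25 and PDGFC), against 1.94% of loci in the genome, and 0 had the reverse, against 1.34%.

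**Figure D5:**
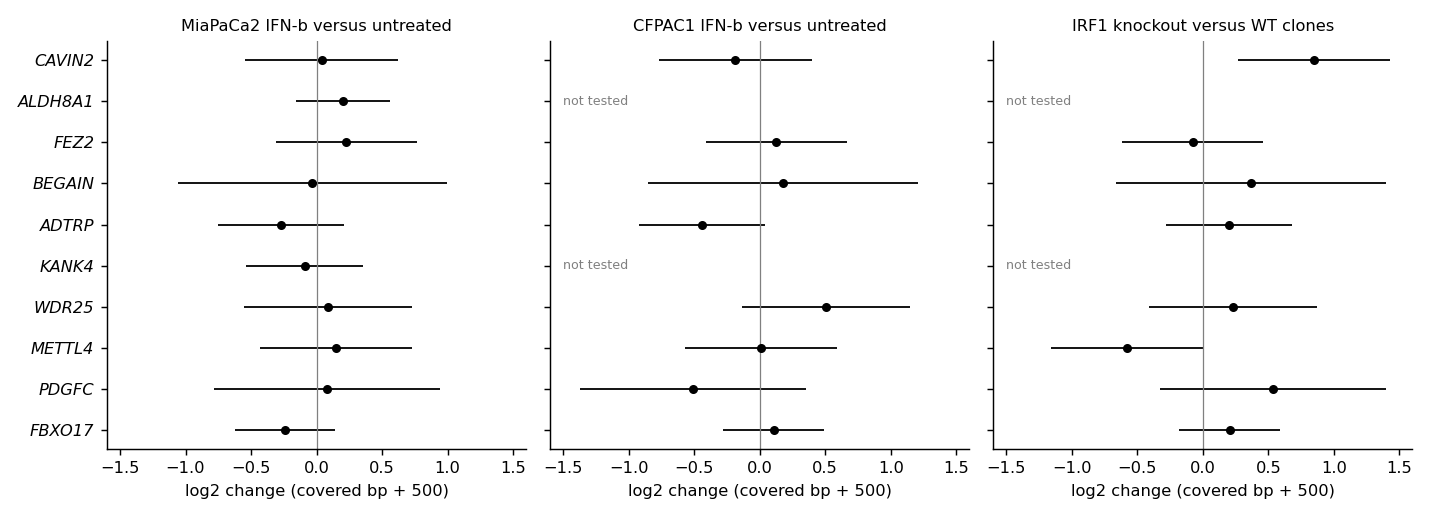
log2 change in covered length (covered bp plus 500 bp) of each gene in the 3 comparisons, as points with 95% intervals of the limma fit; genes without coverage in the compared libraries are marked as not tested. The interval of CAVIN2 in the IRF1 knockout comparison lies above 0 before adjustment, and its adjusted p is 0.158.

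The 2 knockout clones were unlike each other at these genes. BEGAIN had 3.67 kb in clone 1 and 15.6 kb in clone 2, and WDR25 13.7 and 31.7 kb. Clone 2 was the highest of the 8 CFPAC1 libraries at 6 of the 9 genes with any CFPAC1 coverage (CAVIN2, FEZ2, BEGAIN, KANK4, WDR25 and FBXO17), against 32.1% of 17453 genes. The windows of BEGAIN and WDR25 share 33.2 kb, so these 2 genes are not independent here. Clone 2 had 23 peaks in the BEGAIN window where the other 7 libraries had 5 to 10. It also has the longest peak list. With the same number of peaks taken from every library, clone 2 was the highest at 5 of 8 genes, against 21.7% of 16975. Its BEGAIN window then held 10.3 kb and the other CFPAC1 libraries 2.80 to 4.27 kb, and its WDR25 window 23.4 kb against 11.7 to 15.8 kb. The genes were picked for little or no CFPAC1 coverage, which can hold the libraries used for the choice low. How often clone 2 was the highest is therefore a description. Without clone 1, with clone 2 then standing alone and assumed to vary like the other libraries, CAVIN2 (1.25), BEGAIN (1.31) and WDR25 (0.79) passed, with limma adjusted p of 0.0201, 0.0130 and 0.0319, among 1121 genes called. Without clone 2, BEGAIN and WDR25 were at -0.57 and -0.32, and 58 genes were called. Without WT clone 1 116 genes were called, and without WT clone 2 52. Whether the longest list, the clone or the loss of IRF1 goes with these peaks was not tested.

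Relatives of the 10 genes were found in both directions. Of 54 relatives in 8 lists, 53 could be tested between the untreated lines, where 20 had more covered length in MiaPaCa2 and 14 less (limma, adjusted p under 0.05). Over all 17285 genes 61.1% were called (37.5% higher and 23.6% lower), and without centring 8756 genes were called, 44.3% of them higher, in place of 10562 with 61.3% higher. The sign of 20 of the 20 higher relatives stayed positive without centring. The median log2 difference of the relatives was 0.28, the same as over all genes (0.28). No relative was covered in all MiaPaCa2 and no CFPAC1 libraries.

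Among the 9 other genes of caveolae 3 were higher in MiaPaCa2 and 4 lower. CAVIN1, the coat protein that all caveolae need, had 13.8 to 21.3 kb in MiaPaCa2 and 3.99 to 10.7 kb in CFPAC1. CAV1, the main membrane protein of caveolae, went the other way, with 5.97 to 11.04 kb in MiaPaCa2 and 14.1 to 21.7 kb in CFPAC1. Of the other PDGF ligands and receptors 2 were higher in untreated MiaPaCa2 (PDGFA and PDGFRB) and 1 was lower, PLAT. PLAT, a protease that activates PDGFC, had 1.3 to 2.63 kb in MiaPaCa2 and 8.63 to 24.7 kb in CFPAC1. Over all libraries the lines overlapped at PDGFA (8.39 to 17.4 kb in MiaPaCa2, 4.65 to 8.84 kb in CFPAC1). They also overlapped at PDGFRB (1.34 to 3.95 kb in MiaPaCa2, 0 to 8.21 kb in CFPAC1). Of the other KANK genes KANK2 and KANK3 were higher and KANK1 lower. Over all libraries KANK2 had 5.65 to 13.0 kb in MiaPaCa2 and 1.46 to 9.70 kb in CFPAC1, so the lines overlapped there.

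In the tryptophan-kynurenine pathway, of which ALDH8A1 is a late enzyme, 0 of 11 tested genes were higher in MiaPaCa2 and 5 were lower. KYNU, which cleaves kynurenines, had no coverage in MiaPaCa2 and 21.9 to 34.7 kb in CFPAC1. IDO1, the interferon-inducible first enzyme, also had none in MiaPaCa2, and in CFPAC1 it rose after IFN-b by 2.31 ± 0.38 on the log2 scale (SE, limma adjusted p = 0.0243). IDO2 rose by 2.34 ± 0.39 (limma adjusted p = 0.0253). Both calls were lost with the replicate number as a block (limma adjusted p = 0.105 and 0.0828). They were also lost with a pseudocount of 100 bp and without any 1 of the 4 libraries. That of IDO2 was lost at the larger gene end, with the replicate numbers crossed and with the 4 compared libraries alone as well. The call held under 7 of 13 alternatives for IDO1 and 4 of 13 for IDO2. Over all alternatives the adjusted p ran from 0.0164 to 0.251 for IDO1 and from 0.0225 to 0.311 for IDO2. KYAT3, an aminotransferase of the pathway, rose in MiaPaCa2 after IFN-b by 0.99 ± 0.15 (limma adjusted p = 0.0164). This call was lost with the block (limma adjusted p = 0.0773), without centring, and without the first untreated or either treated library. It was also lost at the larger gene end, with the replicate numbers crossed and with the 4 compared libraries alone, and held under 5 of 13 alternatives. Its adjusted p ran from 0.0111 to 0.549 over the alternatives. These 3 were the relatives called in any of the 3 comparisons of treatment or knockout. IDO1 and IDO2 are neighbours whose windows overlap, and GBP3, an interferon-induced guanylate-binding protein gene, lies 13.7 kb from KYAT3. All 4 other sugar-binding F-box genes (FBXO2, FBXO6, FBXO27 and FBXO44) were higher in MiaPaCa2, and FBXO2, FBXO6 and FBXO44 are neighbours whose windows overlap. Of the adenine methyltransferase list 3 of 6 were higher and 0 lower, and of the postsynaptic scaffold list 4 of 8 were higher and 1 lower. FEZ1 was higher in untreated MiaPaCa2, and AIG1, a hydrolase related to ADTRP, was lower. Over all libraries FEZ1 had 0 to 2102 bp in MiaPaCa2 and 0 to 2313 bp in CFPAC1, so the lines overlapped there.

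The non-member genes whose covered length followed the mean of the 10 most closely over the 12 libraries were NKX2-5, NANOGP8, DOCK11, PDE10A and RFC3, with Pearson's r of 0.996 to 0.999. The libraries fall into 2 lines, so r mainly measures the step between them, and 50 genes had r above 0.99. DOCK11 had 75820 to 84189 bp in MiaPaCa2 and 0 to 246 bp in CFPAC1. PDE10A, a phosphodiesterase gene, had 168547 to 198564 bp in MiaPaCa2 and 1971 to 5966 bp in CFPAC1. NKX2-5, a homeobox gene known from heart, had 3359 to 4343 bp and 0 to 200 bp, so genes of short covered length were among the most alike.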

How the data were processed

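H3K27ac ChIP-seq was analysed from 1 narrowPeak list for each of 12 libraries. Per the submitters' processing notes the authors used Trimmomatic 0.38, Bowtie2 2.2.6, SAMtools and MACS2 2.1.0.20150731 with GRCh38; the control library, peak options and read depth are not given in the sources used here. The deposited fold enrichment (a ratio per peak), the -log10 p and q values and the score are the authors' own for each list, and were used only to describe, rank or filter peaks within it; the deposited score was not analysed.

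Peaks on chromosomes 1 to 22 and X were intersected with RefSeq gene bodies (GRCh38.p14, 19974 protein-coding genes) plus 20 kb on each side. Covered bp plus 500 bp was taken to log2, centred on each library's mean and fitted with limma 3.58.1 (R 4.3.3, trended prior, 6 groups, 6 residual degrees of freedom) over 17285 genes covered in at least 2 libraries, with Benjamini-Hochberg adjustment. Calls were made at an adjusted p under 0.05, and a named gene was tested where at least 2 of the 4 libraries compared had coverage. On simulated data modelled on the MiaPaCa2 comparison, the fit recovered 56% of genes changed by 1 and 93% of those changed by 2 on the log2 scale. Genes of short covered length in untreated MiaPaCa2 were not changed there, and the CFPAC1 and clone comparisons were not simulated. These shares therefore do not carry over to windows of short covered length. Peaks overlapping by 1 bp or adjoining were merged into loci.

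Groups came from the sample labels. The genes and lists were chosen with earlier results of these data known. Named are the 10 genes, genes lying in their windows, the 5 genes most like their mean, relatives from 8 lists and cell type markers. WT1 and GBP3 were chosen after their values were seen. Alternatives changed the peak threshold, window, pseudocount, filter, centring, libraries fitted and replicate pairing. Python 3.11.15, numpy 2.4.6, pandas 2.3.3, scipy 1.17.1 and matplotlib 3.10.9 were used.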

Additional observations from a re-analysis of the deposited data

How the results depend on the processing

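Covered length reflects the extent of peaks rather than their height, and depends on each library's unknown depth. The 10 windows together held 582 ± 32.8 kb (SD, n = 4) in MiaPaCa2. They held 541 kb with peaks of -log10 q of at least 5, 493 kb with 5 kb flanks, and 572 to 596 kb without 1 library. Lengths and loci in the stretch shared by BEGAIN and WDR25 were counted for both genes. The 85 MiaPaCa2 loci became 61 to 80 under the other settings and 100 to 108 without 1 library.

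With the replicate number as a replicate block, limma called 72, 0 and 0 genes (MiaPaCa2, CFPAC1 and clone comparisons; 1333, 1955 and 2553 at an unadjusted p under 0.05), and none of the 10 genes; it also ended the calls of IDO1, IDO2 and KYAT3. Same-numbered libraries deviated with r of -0.06, 0.26 and -0.12, over 2 pairs each, so the numbers are not shown to pair them. A crossed pairing of the clones, added after seeing the data, called 22. With the 4 compared libraries alone 11, 12 and 0 genes were called (1057, 2870 and 1690 unadjusted). Without 1 library the counts ran from 22 to 380, 2 to 25 and 52 to 1121. Without centring the clones gave 117, and the share of higher calls in the CFPAC1 comparison was 60.7% in place of 78.1%. Leaving out the centring moved the median of all genes by -0.10, -0.17 and 0.13 in these comparisons and by -0.28 between the untreated lines.

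Over 313 values of named genes under alternatives, 280 kept direction and call, 3 passed the threshold (without IRF1 knockout clone 1, as reported) and 30 changed sign; the cause was not tested. In MiaPaCa2, without centring CAVIN2 was at -0.064, WDR25 at -0.020 and PDGFC at -0.022; CAVIN2 was at -0.019 with equal peak numbers; at the larger gene end BEGAIN was at 0.10, KANK4 at 0.072 and METTL4 at -0.0013. Without 1 library CAVIN2 ran from -0.070 to 0.15, BEGAIN from -0.20 to 0.14 and METTL4 from -0.077 to 0.37. In CFPAC1, without centring FEZ2 was at -0.043, METTL4 at -0.16 and FBXO17 at -0.064; BEGAIN was at -0.043 with stronger peaks and -0.074 with equal numbers; METTL4 was at -0.0186 at the gene end and -0.0164 without the filter. Without 1 library CAVIN2 ran from -0.43 to 0.066, BEGAIN from -0.043 to 0.41 and METTL4 from -0.24 to 0.26. In the clones FEZ2 was at 0.66 at the gene end and 0.053 without centring, and WDR25 at -0.46 at the gene end. Without 1 library CAVIN2 ran from 0.45 to 1.25, FEZ2 from -0.51 to 0.36, BEGAIN from -0.57 to 1.31, WDR25 from -0.32 to 0.79 and PDGFC from -0.10 to 1.17. The gene-end window gave no value for 5 genes in CFPAC1 and 2 in the clones, which had coverage in fewer than 2 libraries.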
